A study of Homo sapiens with 4 samples.

Results

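Nascent transcription of 10 genes known as targets of the hypoxia-inducible factors (HIFs) was described: VEGFA, ADM, CA9, SLC2A1, PFKFB3, PDK1, BNIP3, EGLN3, NDRG1 and ANKRD37. The genes were given as a list of symbols, with no threshold on measured values but with earlier results of these data known, and were found as 10 of the 60048 genes of the deposited table. All 10 passed the filter on low values, as did 39464 genes in all. The cells were HCT116, a human colorectal carcinoma line, in which RAD21, a subunit of the cohesin ring, carries a degron tag (genotype RAD21-mAC) that lets auxin trigger the loss of the protein. The control group (2 libraries) received DMSO and the auxin group (2 libraries) was kept for 3 h in indole-3-acetic acid at 0.5 mM. New RNA was marked with 0.5 mM 5-ethynyl uridine (EU) for 20 min, captured and sequenced (EU-seq). Both groups carry the tagged allele, and no untagged cells with auxin were used here, so loss of RAD21 and exposure to indole-3-acetic acid cannot be told apart. The labels name no low-oxygen culture.

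HIFs are heterodimers of an oxygen-regulated alpha subunit (HIF1A or EPAS1) and the constitutive partner ARNT. With oxygen, prolyl hydroxylases mark the alpha subunit for VHL-dependent degradation, and without it the dimer binds DNA at a short core, A or G followed by CGTG, and activates genes of glycolysis, angiogenesis, pH control and mitophagy. The aryl hydrocarbon receptor AHR pairs with the same ARNT and binds a related site that contains GCGTG. The comparison of auxin with control for the HIF targets therefore addresses genes that share a DNA-binding partner with the AHR pathway.

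Promoter windows from 250 bases before to 50 bases after the gene start show where the HIF core lies in 4 of the genes. RefSeq windows (GRCh38.p14) were matched for 8 of the 10 genes, and the 4 shown were picked for a well-known HIF gene (CA9), the smallest p among the genes with a lower estimate (PDK1), overlapping groups (ANKRD37) and the only higher estimate among the matched genes (ADM). They are written 5′ to 3′ along the gene, with ACGTG and GCGTG in capitals in either orientation (CACGT and CACGC on the printed strand for the reverse orientation), and lie at chr9:35673678-35673977 (plus strand), chr2:172555840-172556139 (plus), chr4:185396591-185396890 (plus) and chr11:10304823-10305122 (plus).
CA9: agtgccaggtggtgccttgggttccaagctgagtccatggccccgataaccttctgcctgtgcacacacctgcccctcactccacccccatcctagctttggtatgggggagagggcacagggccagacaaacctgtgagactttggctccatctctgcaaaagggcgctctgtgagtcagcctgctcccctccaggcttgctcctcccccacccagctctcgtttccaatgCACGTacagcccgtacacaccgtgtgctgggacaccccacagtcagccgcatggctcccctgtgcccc
PDK1: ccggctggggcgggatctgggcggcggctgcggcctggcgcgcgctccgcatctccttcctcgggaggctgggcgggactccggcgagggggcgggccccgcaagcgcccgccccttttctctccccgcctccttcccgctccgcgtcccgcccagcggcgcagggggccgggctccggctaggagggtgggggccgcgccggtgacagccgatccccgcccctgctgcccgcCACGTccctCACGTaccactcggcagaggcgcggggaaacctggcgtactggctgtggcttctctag
ANKRD37: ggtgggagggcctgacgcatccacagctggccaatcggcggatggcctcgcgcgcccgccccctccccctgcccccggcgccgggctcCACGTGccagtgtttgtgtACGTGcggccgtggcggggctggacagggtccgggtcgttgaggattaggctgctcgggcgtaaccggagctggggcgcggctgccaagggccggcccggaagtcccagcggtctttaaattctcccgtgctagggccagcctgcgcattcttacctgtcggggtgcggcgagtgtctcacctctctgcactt
ADM: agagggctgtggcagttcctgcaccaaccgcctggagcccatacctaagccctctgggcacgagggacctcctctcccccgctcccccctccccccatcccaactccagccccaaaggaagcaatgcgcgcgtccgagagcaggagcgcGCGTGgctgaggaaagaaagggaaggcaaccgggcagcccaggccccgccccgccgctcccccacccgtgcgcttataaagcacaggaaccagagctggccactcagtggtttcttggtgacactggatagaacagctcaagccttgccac
The leftmost base of the core lies 18 bases before the start of CA9, 17 and 8 bases before that of PDK1, and 101 bases before that of ADM. In ANKRD37 an ACGTG in each orientation overlaps at 162 and 161 bases before the start, and another lies at 143; the RefSeq start used there lies 30 bases from the ANKRD37 start given by the deposited table. One of these cores is present in 7 of the 8 windows, against 48.4% of 35116 RefSeq windows of 300 bases. ACGTG is in 4 of 8 (21.4% of all windows) and GCGTG in 4 of 8 (36.5%), and the longer AHR-type letters TNGCGTG, which contain GCGTG, are in 0 of 8 (5.51%). These are matches of letters in short windows, not measured binding.

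Totals on the deposited scale were 78174823 and 78585045 in control replicates 1 and 2, and 61135244 and 93113007 in auxin replicates 1 and 2. Each library was divided by a TMM factor, which assumes that most genes keep their share of the total, and the result is called scaled signal. The factors were 0.999 and 1.01 in control replicates 1 and 2, and 0.816 and 1.21 in auxin replicates 1 and 2. In bulk RNA, fewer cells of a type and less RNA per cell cannot be told apart. Among the colorectal epithelial markers, KRT8 and CDH1 were high (scaled signal in control 23325 ± 2380.1 and 11129.7 ± 98.6, SD, n = 2), while KRT20 and CDX1 were low (36.2 ± 8.09 and 13.1 ± 5.48). Of 13 markers of fibroblasts, endothelium and blood, 10 passed the filter, and their summed signal was 1267 and 1522 in control and 1700.2 and 1964 in auxin, against 58352 to 65442 for the 10 epithelial markers. LUM and COL1A2 were listed at 0 in some libraries, and the part of this difference between the groups in the results was not tested.

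NDRG1 was the only one of the 10 genes that passed the test for a change, and it rose 2.93-fold. ADM had the next highest estimate but did not pass the test. The other 8 genes had lower estimates, of which the lowest were CA9, PDK1 and VEGFA, and none of them passed. A gene is called here when its limma p, adjusted by Benjamini and Hochberg's method over all 39464 genes, is under 0.05: 1 of the 10 was called (0.732% of all tested genes were), 1 higher (0.332%) and 0 lower (0.400%). At an unadjusted p under 0.05 there were 4 of the 10, 2 higher and 2 lower, against 10.2% of all tested genes, 4.75% higher and 5.47% lower. The groups did not overlap for 7 of the 10 genes (38.2% of all tested): both auxin libraries lay above both control libraries for 2 (18.6%) and below them for 5 (19.6%). The labels do not say whether the replicates were separate cultures, so p-values speak of differences between these libraries, not between cultures. In each of them limma also draws the gene's own spread towards an intensity trend over all genes, with 8.23 prior degrees of freedom. A permutation test of 1 gene cannot go below 0.333 with 2 against 2.

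**Figure D1:**
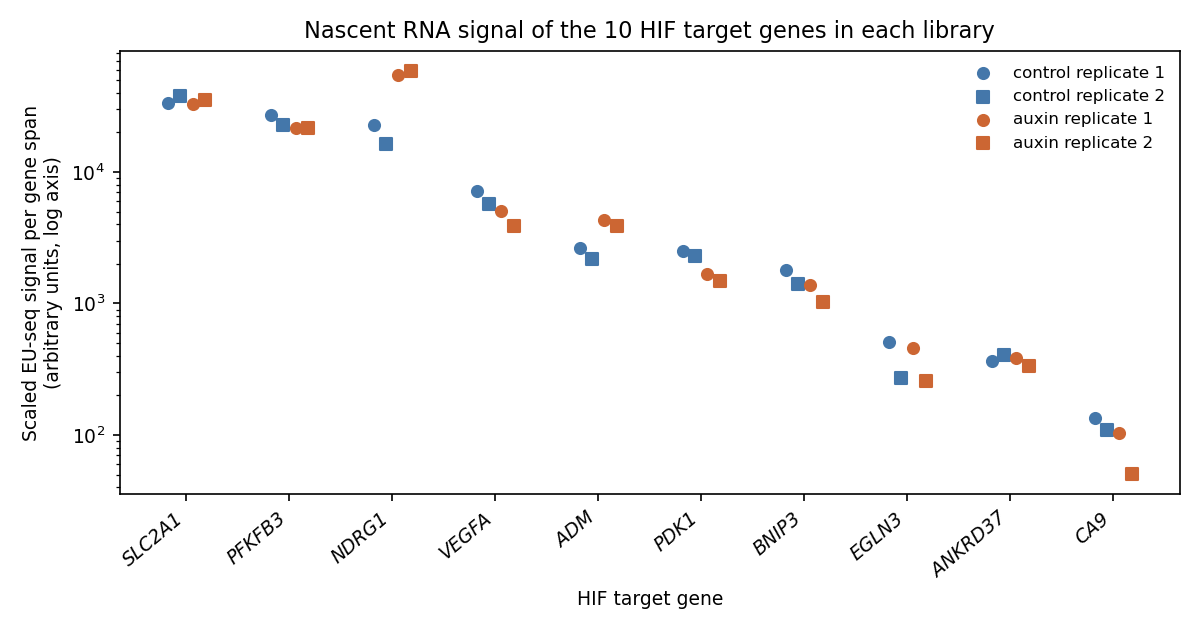
Scaled EU-seq signal (arbitrary units, log axis) of each of the 10 HIF target genes in the 4 libraries, ordered by the control mean. NDRG1 and ADM have both auxin points above both control points, VEGFA, PDK1, BNIP3, PFKFB3 and CA9 have both below, and the groups overlap for SLC2A1, EGLN3 and ANKRD37.

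NDRG1 (ENSG00000104419, hg38 chromosome 8, 133237176 to 133297586, minus strand) encodes a cytoplasmic protein of stress and differentiation responses. Its scaled signal was 22678 and 16384 in control replicates 1 and 2, and 54548 and 58632 in auxin replicates 1 and 2. Both auxin libraries were thus far above both controls, and the gap between the groups was wider than the spread within either. The control mean was 19531 ± 4451 and the auxin mean 56589.9 ± 2888 (SD over 2 libraries). On the log2 scale this was a change of 1.55 with a 95% interval of 1.24 to 1.87 (SE 0.14, limma adjusted p = 0.00141). Its span overlaps no other gene of the table, and no other gene lies within 5 kb. With any 1 of the 4 libraries left out the log2 fold change lay between 1.32 and 1.80. NDRG1 was not called on the deposited scale without further scaling (1.53, limma adjusted p = 0.165), where limma took its spread from the trend over genes alone. There the values were 22662 and 16620.2 in control and 44493 and 70909.9 in auxin, so the groups were still apart.

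The genes for secreted factors gave estimates of opposite sign. ADM (ENSG00000148926, chromosome 11, 10305073 to 10307397, plus strand), the precursor of the vasodilator peptide adrenomedullin, had 2664 and 2176 in control and 4332 and 3887 in auxin. Both auxin libraries were higher, with a log2 fold change of 0.77 (SE 0.16, interval 0.42 to 1.12), and the limma adjusted p of 0.0668 missed the threshold. The estimate was 0.92 without control replicate 1, 0.62 without control replicate 2, 0.70 without auxin replicate 1 and 0.85 without auxin replicate 2. VEGFA (ENSG00000112715, chromosome 6, 43770213 to 43786487, plus strand), the main growth factor of blood vessels, had 7118 and 5713 in control and 5064 and 3859.5 in auxin. Both auxin libraries were lower than both controls, with a gap to the nearest control that was smaller than the spread between the controls. The log2 fold change was -0.53 (SE 0.17, interval -0.91 to -0.15, limma adjusted p = 0.255). It was -0.72 without auxin replicate 1 and -0.69 without control replicate 2, and smaller without auxin replicate 2 (-0.33) and without control replicate 1 (-0.36).

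For the membrane proteins, glucose transport and pH control were measured at very different levels. SLC2A1 (ENSG00000117394, chromosome 1, 42925353 to 42958868, minus strand), which encodes the glucose transporter GLUT1, had 33321.5 and 37639.9 in control and 32720.2 and 35175 in auxin. The groups overlapped, the log2 fold change was -0.06 (SE 0.10, interval -0.29 to 0.17, limma adjusted p = 0.948), and its sign turned without control replicate 2 (0.026). CA9 (ENSG00000107159, chromosome 9, 35673928 to 35681159, plus strand), a cell-surface carbonic anhydrase that is among the genes most used as a marker of hypoxia, had 135 and 108 in control and 103 and 50.5 in auxin. All 4 values were low and auxin replicate 2 stood lowest, so the log2 fold change of -0.73 was loosely measured (SE 0.36, interval -1.54 to 0.07, limma adjusted p = 0.544) and was -0.22 without that library and -1.24 without auxin replicate 1.

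Of the genes that steer glucose carbon, PDK1 had the larger difference and PFKFB3 the smaller one. PDK1 (ENSG00000152256, chromosome 2, 172556090 to 172608669, plus strand), a kinase that shuts off pyruvate dehydrogenase, had 2495 and 2287 in control and 1676 and 1482 in auxin. The groups were apart by more than the spread within either, with a log2 fold change of -0.60 (SE 0.16, interval -0.95 to -0.25, limma adjusted p = 0.157). PFKFB3 (ENSG00000170525, chromosome 10, 6144934 to 6235532, plus strand) makes the activator of phosphofructokinase, and had 27310.3 and 22835 in control and 21539.7 and 21484 in auxin. The auxin libraries were close to each other and just below the lower control, with a log2 fold change of -0.22 (SE 0.11, interval -0.47 to 0.04, limma adjusted p = 0.599). Leaving out control replicate 1 gave -0.08, and leaving out control replicate 2 gave -0.34. On the deposited scale its groups overlapped, at 27291.3 and 23164 against 17569 and 25983.

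BNIP3 (ENSG00000176171, chromosome 10, 131966455 to 131982013, minus strand), a receptor for the removal of mitochondria, had 1784 and 1397 in control and 1376 and 1029 in auxin. Control replicate 2 and auxin replicate 1 were nearly equal, and the log2 fold change was -0.41 (SE 0.20, interval -0.86 to 0.04, limma adjusted p = 0.545). It was -0.20 without auxin replicate 2 and -0.22 without control replicate 1. EGLN3 (ENSG00000129521, chromosome 14, 33924227 to 33951074, minus strand), the prolyl hydroxylase PHD3 that is both a HIF target and a brake on HIF, had 513 and 273 in control and 459 and 257 in auxin. Its libraries differed more by replicate number than by group: the log2 fold change was -0.12 (SE 0.34, interval -0.88 to 0.63, limma adjusted p = 0.974), and turned to 0.34 without control replicate 1 and 0.29 without auxin replicate 2. ANKRD37 (ENSG00000186352, chromosome 4, 185396811 to 185400628, plus strand), an ankyrin-repeat protein, had 368 and 409 in control and 382 and 334 in auxin. The groups overlapped (log2 fold change -0.12, SE 0.21, interval -0.58 to 0.34, limma adjusted p = 0.950), and the estimate ranged from -0.21 to -0.02 with 1 library left out.

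**Figure D2:**
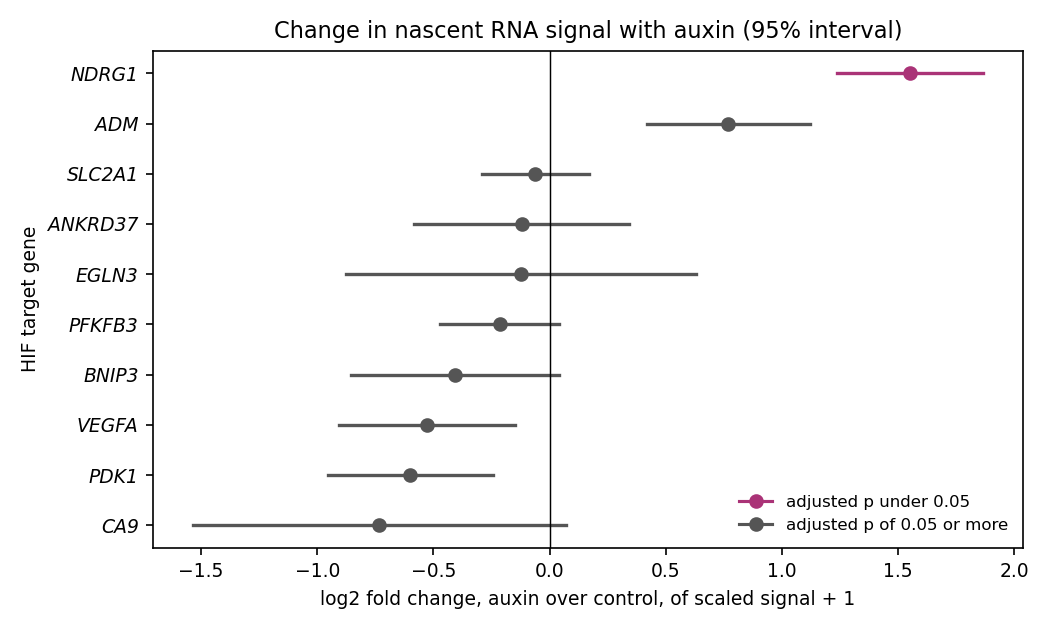
Log2 fold change, auxin over control, of each HIF target gene on the log2(scaled signal + 1) scale, with its 95% interval from limma. NDRG1 alone is marked as called, at 1.55; the intervals of ADM (0.42 to 1.12), VEGFA (-0.91 to -0.15) and PDK1 (-0.95 to -0.25) do not include 0, and those of the other 6 genes do.

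As a group, the 10 genes had a median log2 fold change of -0.17, against 0.0089 over all tested genes, and 8 of 10 estimates were below 0 (48.7% of all tested genes). The spread between replicates was of the same size: set against each gene's control mean, the median over the 10 genes was 0.15 and -0.15 in the control libraries and -0.16 and -0.38 in the auxin libraries, a pooled SD of 0.19. The median moved to -0.46 when control replicate 2 was left out and to -0.37 when auxin replicate 1 was. A majority of lower estimates was not particular to these genes. It was also found for 8 of 10 epithelial markers (median -0.22) and 17 of 21 glycolysis and glucose uptake genes. Lower estimates were fewer for the HIF subunits and oxygen sensing (10 of 17), the other HIF targets (17 of 33), the AHR list (5 of 12) and the markers of other cell types (1 of 10). The sign of the estimate was the same for each of the 10 genes under TMM, median-ratio and library-size scaling and on the deposited scale. These choices shift all genes by about the same small amount, so they hardly test the sign.

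Signal per kilobase of gene span, introns included, sets the genes side by side. Whether it tracks transcription alike in short and long genes was not tested. In control the order was SLC2A1 (1059 ± 91.1), ADM (1041 ± 148), VEGFA (394 ± 61.0), NDRG1 (323 ± 73.7), PFKFB3 (277 ± 34.9), BNIP3 (102 ± 17.6), ANKRD37 (102 ± 7.67), PDK1 (45.5 ± 2.79), CA9 (16.8 ± 2.57) and EGLN3 (14.6 ± 6.31; SD, n = 2 each). Neighbours in this order overlapped between libraries for SLC2A1 and ADM, VEGFA and NDRG1, NDRG1 and PFKFB3, BNIP3 and ANKRD37, and CA9 and EGLN3. SLC2A1 stood at the 98.6th percentile of tested protein-coding genes in signal per kilobase and EGLN3 at the 29.0th, so the set covers genes of high and low signal per kilobase. In auxin NDRG1 reached 937 ± 47.8 and ADM 1767 ± 135 per kilobase, and CA9 was at 10.6 ± 5.18.

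Genes around the targets were listed because the table gives each gene by its whole span, and whether the counting used strand is not given in the sources used here. Of 18 genes that overlapped a target or lay within 5 kb, 12 overlapped one of 7 targets, by at most 28.6% of the target's span (UFSP2 over ANKRD37). Of these genes 16 passed the filter and 0 were called by limma (0.732% of all tested genes), while 5 had an unadjusted p under 0.05 (10.2% of all). The lncRNA gene AC080023.1, which lies 1368 bases from ADM on the other strand, had 341 and 446 in control and 689 and 769 in auxin, with an estimate of 0.90 (SE 0.21, limma adjusted p = 0.105) beside the 0.77 of ADM. The lncRNA gene AC078883.1, whose start overlaps that of PDK1 by 440 bases on the other strand, had 5497 and 5603 in control and 4216 and 3625 in auxin, with an estimate of -0.51 (SE 0.14, limma adjusted p = 0.177) beside the -0.60 of PDK1. The lncRNA gene AL136131.3, which overlaps 188 bases of VEGFA on the other strand, was at -0.60 (SE 0.27, limma adjusted p = 0.491). Next to CA9, TPM2 was at -0.41 (SE 0.13, limma adjusted p = 0.244), and ARHGEF39, which overlaps 26.8% of CA9, was at 0.04 (SE 0.19, limma adjusted p = 0.989). RN7SKP78, inside PFKFB3, was at -0.67 (SE 0.26, limma adjusted p = 0.368), and LRP2BP, next to ANKRD37, at -0.41 (SE 0.16, limma adjusted p = 0.364). AL162274.2, a gene of low signal that overlaps BNIP3, was at 0.51 (SE 0.49, limma adjusted p = 0.860) beside the -0.41 of BNIP3. Of the 16 estimates, 6 were higher and 10 lower.

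The HIF subunits and the oxygen-sensing machinery had 0 of 17 genes called by limma, where 0.732% of all tested genes were. An unadjusted p under 0.05 was found for 5 of the 17 (2 higher and 3 lower), against 10.2% of all tested genes. The groups did not overlap for 10 of the 17, against 38.2%, and the median log2 fold change was -0.09. ARNT, the partner shared by HIFs and AHR, had 2296 and 2331 in control and 2856 and 3016 in auxin, with an estimate of 0.34 on the log2 scale (interval 0.02 to 0.67, SE 0.15, limma adjusted p = 0.444). HIF1A had 7965 and 8723 in control and 6536 and 6059 in auxin (-0.41, SE 0.13, limma adjusted p = 0.241). ARNT was thus higher and HIF1A lower in both auxin libraries, and neither passed the threshold. EPAS1, which encodes HIF-2 alpha, was at -0.23 (SE 0.19, limma adjusted p = 0.811) with overlapping groups. EGLN1, the main HIF prolyl hydroxylase, was at -0.44 (SE 0.14, limma adjusted p = 0.241). The smallest p of the list was that of CREBBP, a histone acetyltransferase and coactivator, with 23967 and 24275 in control and 28917 and 34257 in auxin (0.38, SE 0.11, limma adjusted p = 0.195).

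Of the glycolysis and glucose uptake genes, 0 of 21 were called by limma (0.732% of all tested genes) and 3 had an unadjusted p under 0.05 (10.2% of all). The groups did not overlap for 9 of the 21 (38.2% of all), and the median was -0.13. The smallest p was that of HK1, a hexokinase, at 5820.6 in each control library and 6633 and 8342 in auxin (0.35, SE 0.14, limma adjusted p = 0.414). LDHA, lactate dehydrogenase A, was at -0.27 (SE 0.12, limma adjusted p = 0.472) and PGK1, phosphoglycerate kinase, at -0.04 (SE 0.13, limma adjusted p = 0.985).

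Among the other HIF targets, 33 of 35 were tested, 2 rose, 0 were called lower by limma and 31 were not called (0.732% of all tested genes were called). An unadjusted p under 0.05 was found for 10, 6 higher and 4 lower, against 10.2% of all tested genes (4.75% higher and 5.47% lower), and the median was -0.10. ANGPTL4, a secreted inhibitor of lipoprotein lipase, had 2455 and 1663 in control and 5636 and 4580.5 in auxin, which was 1.33 higher on the log2 scale (SE 0.20, limma adjusted p = 0.0160). BNIP3L, the mitophagy receptor closest to BNIP3, had 1858 and 1842 in control and 3229 and 3475 in auxin (0.86, SE 0.15, limma adjusted p = 0.0316), whereas BNIP3 itself had a lower estimate. Both genes had every auxin library above every control library. The calls were not kept in every fit. Fits on the deposited scale and without an auxin library took each gene's spread from the trend over genes alone, so their calls are not comparable with the main ones. ANGPTL4 missed the threshold without control replicate 2 (limma adjusted p = 0.0502) and on the deposited scale (0.318). BNIP3L missed it without control replicate 1 (0.0528), control replicate 2 (0.0887) or auxin replicate 2 (limma adjusted p = 0.0912), and on the deposited scale. Leaving out control replicate 1 moved the median of the list to 0.08, and leaving out control replicate 2 moved it to -0.20.

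**Figure D3:**
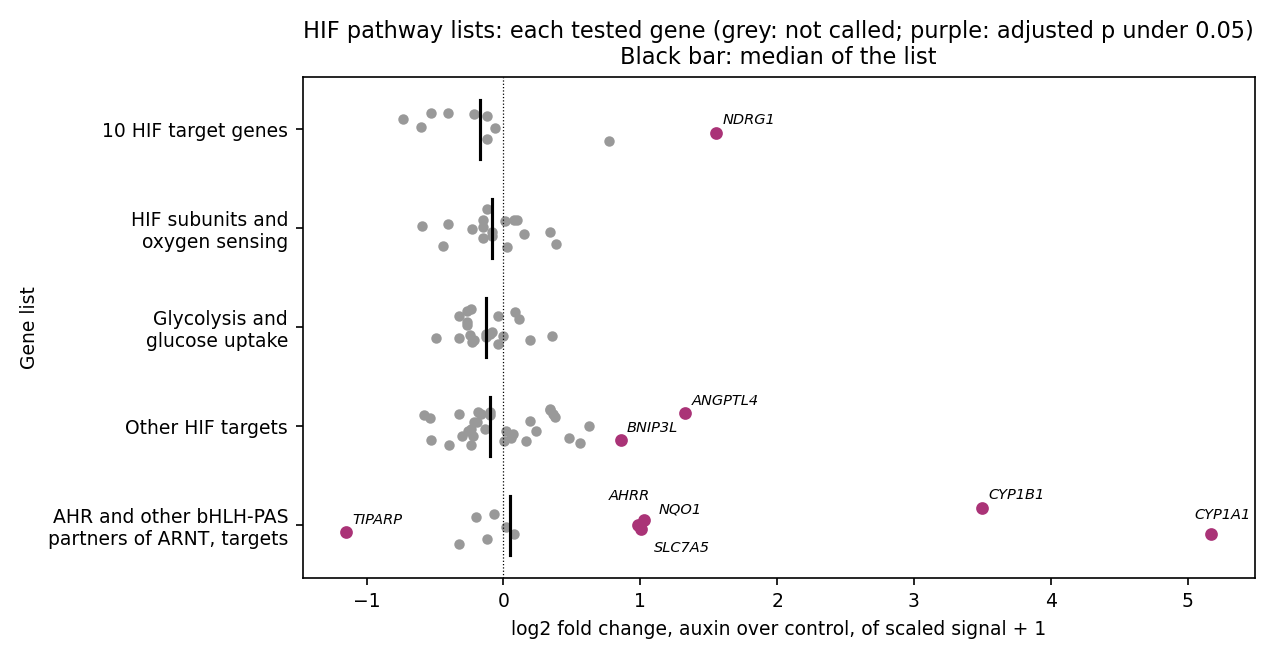
Log2 fold change, auxin over control, on the log2(scaled signal + 1) scale, of each tested gene in 5 lists, with called genes named and the median of each list as a bar. Called genes are NDRG1, ANGPTL4 and BNIP3L among HIF targets, and 6 genes of the AHR list, where CYP1A1 reaches 5.17.

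In the list of AHR, other ARNT partners and AHR targets, 6 of 12 genes were called, 5 higher and 1 lower, with a median of 0.05. Of all tested genes 0.732% were called, 0.332% higher and 0.400% lower. Those called higher were the xenobiotic-metabolising CYP1A1 (5.17 on the log2 scale) and CYP1B1 (288 and 119 in control, 2204 and 2007 in auxin), the quinone reductase NQO1 (1.03), the amino acid transporter SLC7A5 (1.01) and the AHR repressor AHRR (0.99), and the ADP-ribosyltransferase TIPARP was lower (-1.15; limma adjusted p between 2.59e-04 and 0.0331). AHR itself was at -0.20 (SE 0.17, limma adjusted p = 0.821). This list was composed with earlier results of these data known, so its count is no independent evidence of direction. Without control replicate 2 the calls of NQO1 (limma adjusted p = 0.0995) and AHRR (0.0741) were lost, as they were with no filter on low values (0.0570 and 0.0551). That of NQO1 was also lost with a mean of at least 50 (limma adjusted p = 0.0503). On the deposited scale, where the spread came from the trend over genes alone, only CYP1A1 and CYP1B1 were called.

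The gene most like NDRG1 over the 4 libraries was sought among 80 tested genes of these lists with a mean scaled signal of at least 50, by the Euclidean distance between log2 values centred on each gene's mean. ANGPTL4 was closest (distance 0.37), followed by AHRR (0.57) and NQO1 (0.62). Over 4 libraries in 2 groups this measure reflects mostly the size of the auxin difference.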

How the data were processed

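EU-labelled nascent RNA was measured in 4 libraries, grouped and numbered by the sample titles. The authors deposited 1 table with a scaled signal per gene span and library. Trimmomatic 0.39, Bowtie2 2.4.5, deepTools 3.5.1 and the builds hg38 and dm6 are named, per the submitters' processing notes. The counter, annotation and scaling are not given in the sources used here. Per the labels' protocols, 200 µg of human RNA was mixed with 20 µg of RNA from labelled fly cells. A misspelt control column was taken as control replicate 2 by its number. Of values no larger than 20 steps, 100% lay within 0.1 step of a whole multiple of each library's step, but between 1000 and 10000 only 18.4% to 69.7% were, so steps were not treated as reads. The depth in reads is therefore unknown.

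The filter asked for 10 or more, per library of median total, in 2 or more libraries and a sum over libraries of 15 or more. The genes left were tested with limma 3.58.1 (R 4.3.3) on log2(TMM-scaled signal + 1), with an intensity trend, auxin against control. The pseudocount understates changes of low genes. TMM, the trimmed mean of log ratios, left out 30% of log ratios and 5% of mean levels at each end, and removes any change in total nascent RNA. Gene starts, 0-based in the table, were raised by 1. All 10 genes overlapped the RefSeq gene of the same symbol. Figures were drawn with matplotlib 3.10.9 from tables made with pandas 2.3.3 under Python 3.11.15. The fit was tested on simulated data. The genes, lists and tests were chosen with earlier results of these data known. Named genes were the 10 targets, ARNT, HIF1A, EPAS1, AHR, CYP1A1 and CYP1B1, the called genes and the smallest p of each list. Others named were a part of the neighbours within 5 kb, and the 3 genes nearest to the target with the smallest p. EGLN1, LDHA, PGK1 and the markers were named after their values were seen.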

Additional observations from a re-analysis of the deposited data

How the results depend on the processing

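Under 13 alternative settings the 10 genes kept the sign of their estimate except SLC2A1 and EGLN3. With 1 library at a time left out, SLC2A1 lay between -0.14 and 0.026 and EGLN3 between -0.58 and 0.34. The replicate block, the stricter threshold and the mean of at least 50 cannot alter an estimate, so they do not test its sign. The scaling choices shift all genes by about the same amount. The count of called targets was 1 under median-ratio and library-size scaling, no filter, a mean of at least 50, pseudocounts of 0.1 and 10 and an adjusted p under 0.01. It was 0 on the deposited scale (1 at an unadjusted p under 0.05), and 1 to 2 with 1 library left out. In those fits the lone library of a group is assumed to vary like the others. The median of the 10 genes ranged from -0.46 to -0.16 with 1 library left out. No label says what a replicate number stands for, and with 2 pairs the data do not settle whether the numbers pair the libraries (Pearson's r of the replicate differences 0.462 across 29158 genes, which are not independent). With the replicate block 5 targets were called, NDRG1 and ADM higher and VEGFA, PDK1 and BNIP3 lower. So were 25 genes of the 4 other lists (8 without it), 5 neighbours (0 without it) and 4273 of all 39464 tested genes. In that fit limma took each gene's spread from the intensity trend over genes alone, not from the gene's own libraries. The same held on the deposited scale and in each fit that left out an auxin library, so these calls are not comparable with the main ones. Over all genes 289 were called, 4273 with the block, 55 on the deposited scale, 82 at an adjusted p under 0.01 and 132 to 681 with 1 library left out. The 4 lists held 2 calls on the deposited scale, 4 at an adjusted p under 0.01, and 4 to 9 with 1 library left out. The cause of these differences was not tested. Count-model tests on steps (edgeR, DESeq2) were not run, as the steps could not be read as reads.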

Other observations

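The values of the HIF targets differed between replicates 1 and 2 within each group. Replicate 2 was lower than replicate 1 in both groups for 7 of the 10 genes, against 31.0% of all tested genes and 33.0% of those with a mean of at least 50, and higher in both groups for 1 of the 10 (SLC2A1). For EGLN3, replicate 2 lay on the log2 scale at -0.91 relative to replicate 1 in control and at -0.83 in auxin, beyond its auxin difference of -0.12. For VEGFA the values were -0.32 and -0.39, for BNIP3 -0.35 and -0.42, and for CA9 -0.31 and -1.02. The order was not shared by the glycolysis list, where 9 of 21 genes were lower in replicate 2 in both groups and 9 were higher in both. Of the other HIF targets, 13 of 33 were lower in both and 8 higher in both. The marker lists ran the other way. In replicate 2 of both groups 7 of 10 epithelial markers and 8 of 10 tested markers of other cell types were higher. Of all tested genes 32.3% were higher in replicate 2 in both groups, as were 33.7% of those with a mean of at least 50. What the replicate numbers stand for is not given in the labels, and no test was made of this pattern.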
